A study of Homo sapiens with 11 samples.

Results

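The genes described here are the MHC genes and the leukocyte receptors of the immunoglobulin superfamily that a spotted array could measure in RT4, a cell line derived from a papilloma of the bladder. They were chosen by symbol alone, as all genes whose symbol starts with HLA-, KIR2D, KIR3D, LILR, CD300, SIGLEC, BTN and a digit, BTNL, FCGR, FCRL or TREM. This gave 68 genes on 73 probes, of 14941 genes that have a probe with a single symbol. They comprised 16 MHC genes (4 of class I and 12 of class II), 40 receptor genes that are not expected in urothelial cells (KIR, LILR, CD300, SIGLEC, FCGR, FCRL and TREM), 10 butyrophilins, the neonatal Fc receptor FCGRT and the antisense RNA CD300LD-AS1. A probe that carries the symbols of several TREM genes was set aside. HLA-DPB2, BTN2A3P, SIGLEC17P and KIR3DX1 are pseudogenes.

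RT4 cells were grown on Matrigel, a basement membrane extract made by a tumor and called crECM for cancer-remodeled extracellular matrix, or on plastic, and Cy3-labeled cDNA was hybridized to long oligonucleotides. There were 9 crECM arrays, 1 at 12 h and 1 on each of days 1, 2, 3, 4, 6, 7, 8 and 9 after the cells had left plastic, and 2 arrays of cells on plastic. All arrays come from this single cell line, the crECM arrays are time points rather than replicates, and nothing in the labels says that the plastic arrays came from separate cultures, so every p-value measures the spread between arrays. The title of plastic replicate 2 adds the words Matrigel next, which that of replicate 1 lacks, and the array was kept in the plastic group. A common sequence stretch among HLA, KIR, LILR, FCGR or SIGLEC paralogs can let a transcript bind the probe of another gene, and the probe sequences were not used here.

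MHC class I molecules sit on nearly all nucleated cells and show peptides from inside the cell to cytotoxic T cells and to natural killer cells. Class II molecules show peptides taken up from outside to helper T cells and are made mainly by professional antigen-presenting cells, although epithelia can be induced to make them. The KIR, LILR, SIGLEC, CD300, FCRL, FCGR and TREM receptors are found mainly on natural killer cells, B cells and myeloid cells. There they read MHC molecules, sialic acid, lipids or antibody and signal through inhibitory or activating motifs.

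The measured values have to be read with 2 detection limits. The deposited values are log10 of the intensity in SDs of the noise peak of each array, adjusted between arrays, and 3 SD (0.477 on the log10 scale) is the limit for expression on that scale. On the raw intensities, 3 SD above the noise peak lay at deposited values of 1.30 and 1.38 on plastic, whereas on the crECM arrays it lay between 0.54 and 0.99. A deposited value of 1 therefore stood above the raw noise on all crECM arrays but within it on both plastic arrays. The raw median intensity of all probes was between 224 and 482 on crECM, against 162 and 140 on plastic. Of all genes, 81.4 to 89.4% exceeded the raw limit on a crECM array, against 48.5 to 57.8% on a plastic array. The arrays of each substrate thus also differed in overall signal, and substrate and handling cannot be told apart. Of the MHC genes, 14 to 15 of 16 exceeded the raw limit on a crECM array and 10 to 11 on a plastic array. Of the 40 receptor genes, 25 to 34 exceeded it on a crECM array and 12 to 17 on a plastic array.

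The labelled cell type was checked with 15 urothelial and epithelial markers. Of these, 10 were above the raw limit on every crECM array and 9 on both plastic arrays, with KRT7, KRT19, GATA3 and PPARG among them, while the uroplakin gene UPK1B and the keratins KRT20 and KRT13 were above it on none. Of 19 leukocyte markers, 12 (63.2%) were above it on every crECM array and 9 (47.4%) on both plastic arrays. Of all genes, 76.2% were above it on every crECM array and 48.0% on both plastic arrays. PTPRC, which encodes the leukocyte antigen CD45, had a median raw intensity of 472 on crECM, against 292 and 278 on plastic. The summed level of the 19 leukocyte genes was 455 to 551 noise SDs on crECM, against 366 to 396 on plastic. That of the 15 urothelial and epithelial genes was 658 to 1302 (median 945) on crECM, against 801 to 847 on plastic. The receptor genes below were thus measured beside other leukocyte genes with signal in this epithelial line, at shares no higher than those of all genes. What part such signal had in the receptor values was not tested.

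The class I and class II promoters were set beside those of the other members. RefSeq promoter windows (GRCh38.p14) were found for 55 of the 68 genes, and the 250 bases before the start most downstream in each gene were searched on both strands for the letters CCAAT, bound in MHC promoters by NF-Y, for a pair of GAAA stretches 2 bases apart (TTTC on the other strand), a core of interferon-stimulated response elements, and for TTC and GAA 3 bases apart, a core of STAT sites. The letters CCAAT occurred in 3 of 3 class I and 9 of 10 class II windows, while HLA-E, HLA-DRA and HLA-DPB2 had no window. They occurred in 5 of 34 receptor windows, in 4 of 7 butyrophilin windows and in 32.7% of the windows of all 27305 genes. The STAT letters occurred in 0 of 3 class I, 1 of 10 class II and 9 of 34 receptor windows, against 6.79% of all. The interferon letters occurred in 1 class I window, that of HLA-F, in 0 class II and in 4 receptor windows, against 3.12% of all. The 200 bases before the start are given for the 3 class I genes and for HLA-DMB and HLA-DMA, which encode the chains of a single heterodimer and carry opposite calls below. Capitals mark CCAAT on either strand and, in HLA-F, the interferon letters. A match is a description of the letters and not a site in use.
HLA-F, chr6:29723234-29723433, plus strand: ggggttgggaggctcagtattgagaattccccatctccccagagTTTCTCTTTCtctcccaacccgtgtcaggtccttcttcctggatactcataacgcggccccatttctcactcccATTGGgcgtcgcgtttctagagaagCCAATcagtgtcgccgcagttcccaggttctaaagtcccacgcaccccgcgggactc
HLA-G, chr6:29827625-29827824, plus strand: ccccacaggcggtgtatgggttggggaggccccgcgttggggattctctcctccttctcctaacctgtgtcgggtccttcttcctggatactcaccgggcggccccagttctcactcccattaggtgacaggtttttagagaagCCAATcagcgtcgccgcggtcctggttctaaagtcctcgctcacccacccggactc
HLA-C, chr6:31272093-31272292, minus strand: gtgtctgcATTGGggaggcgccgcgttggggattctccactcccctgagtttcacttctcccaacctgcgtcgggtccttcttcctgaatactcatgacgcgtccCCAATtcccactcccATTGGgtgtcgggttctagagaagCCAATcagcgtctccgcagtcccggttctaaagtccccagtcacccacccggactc
HLA-DMB, chr6:32941029-32941228, minus strand: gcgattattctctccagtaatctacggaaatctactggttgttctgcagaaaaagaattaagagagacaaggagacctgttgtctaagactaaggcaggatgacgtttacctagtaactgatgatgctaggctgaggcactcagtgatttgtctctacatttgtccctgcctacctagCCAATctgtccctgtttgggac
HLA-DMA, chr6:32953098-32953297, minus strand: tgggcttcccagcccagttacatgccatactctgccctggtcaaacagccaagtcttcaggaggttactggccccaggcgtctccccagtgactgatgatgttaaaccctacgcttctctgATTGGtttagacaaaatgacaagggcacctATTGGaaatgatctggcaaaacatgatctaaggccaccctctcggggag
The CCAAT letters began 82 and 57 bases before the start in HLA-F, 56 in HLA-G and 192, 95, 80 and 56 in HLA-C. They began 22 bases before it in HLA-DMB and 79 and 49 in HLA-DMA.

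Between crECM and plastic, 21 members were higher, 13 were lower and 32 did not pass the test, of 66 that could be tested. LILRA5 and LILRB5 were under 3 SD on every array and had no test. The share called was 51.5%, against 44.3% of all 14517 genes tested in the same fit (24.2% higher and 20.1% lower), which is a share near that of other genes. The test was limma on log2 of the deposited values with a floor of 3 SD and a Benjamini-Hochberg adjusted p below 0.05 over all probes. The median log2 change was 0.15 over the members and 0.09 over all genes. All 9 crECM arrays lay above both plastic arrays for 16 members and below both for 15, against 23.2% and 22.4% of all genes. The count of higher members was 12 without plastic replicate 1 and 9 without plastic replicate 2, where the lone plastic array is assumed to vary like the crECM arrays. The higher calls that held whichever plastic array was left out were 8 (CD300C, FCGR2B, FCGR3B, FCRL2, LILRA4, SIGLEC12, TREM2 and BTN3A1), with no MHC gene among them. The lower calls that held were 8 (HLA-DQA1, CD300A, FCRL1, FCRLB, SIGLEC17P, CD300LD-AS1, BTN1A1 and BTNL2). Of these 8, HLA-DQA1, CD300A, FCRL1, BTN1A1 and BTNL2 had no array above the raw limit and stood at or near the floor on crECM, so that their calls could hardly change with the plastic array. When values were recomputed from the raw intensities with a regression between arrays, 14 of 62 tested members were higher and 9 were lower, all of them among the 21 and 13 calls above, against 15.4% higher and 18.6% lower of all genes (34% in either direction). The 7 higher calls that did not pass there were HLA-DMB, HLA-DPA1, KIR2DL4, KIR3DL2, LILRA3, FCRLA and FCGR2B (0.06 ± 0.07, adjusted p = 0.56).

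Of the 21 higher members, 15 had no plastic array above the raw limit, so that their level on plastic is only a bound. Setting plastic to that limit left a fold above 1 for 3 of these, BTN3A1 at least 1.71-fold, HLA-DPA1 at least 1.20-fold and CD300C at least 1.16-fold, and gave no bound for the other 12. The remaining 6 were above the raw limit on at least 1 plastic array: HLA-G, KIR3DL2, FCGR1A, FCGR2B, BTN3A2 and BTN2A3P. Of the 13 lower members, 8 were above the raw limit on every array and 5 (HLA-DQA1, CD300A, FCRL1, BTN1A1 and BTNL2) were above it on none.

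**Figure D1:**
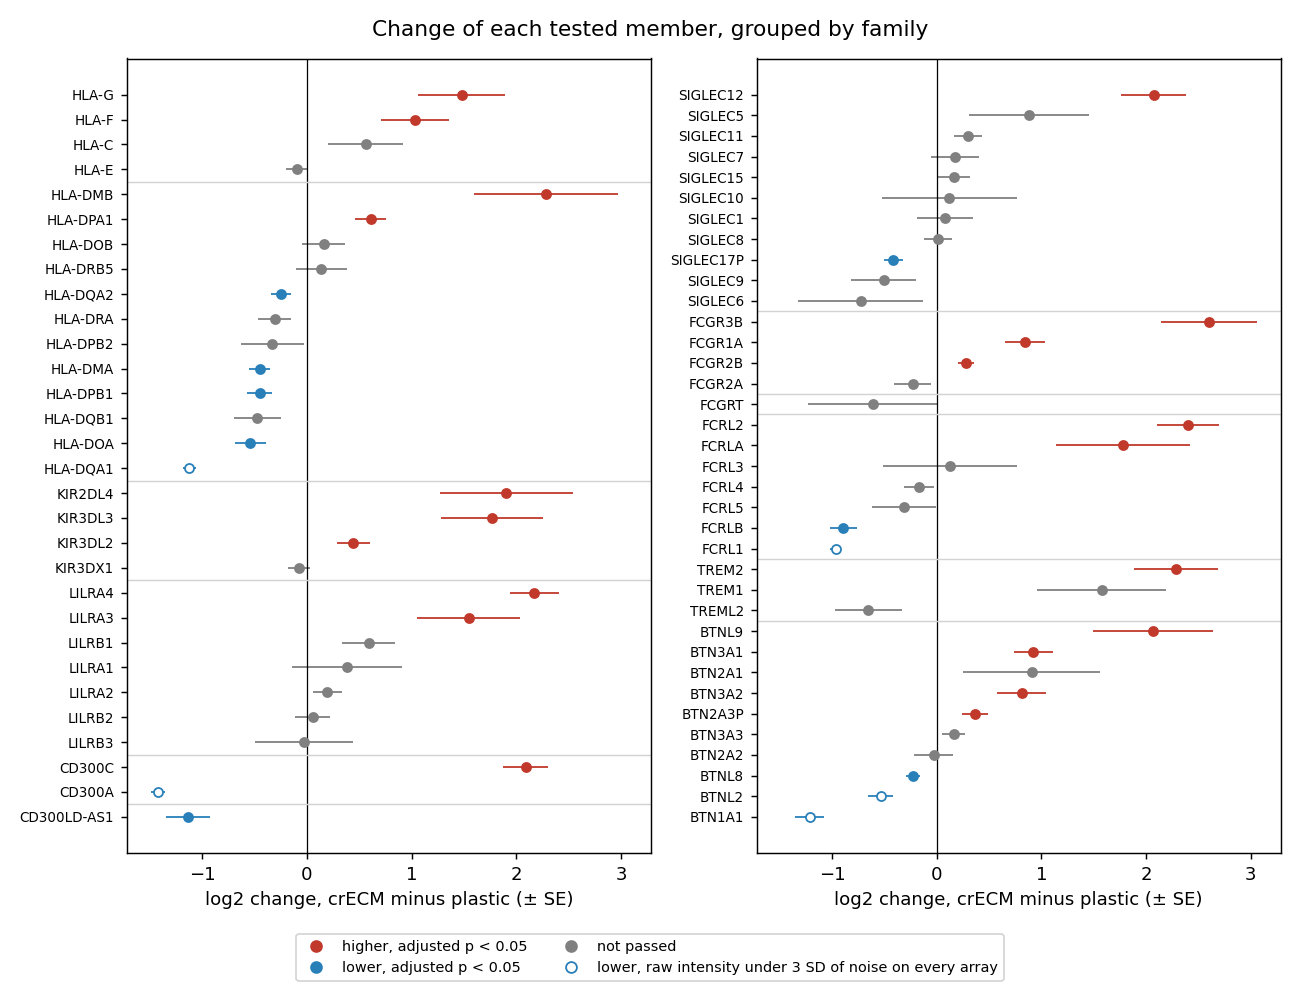
Log2 change (crECM minus plastic, ± SE, horizontal axis) of the 66 tested members, 1 row for each gene, in blocks by family. Red points are the 21 higher and blue points the 13 lower members, and the 5 open blue points are genes under the raw limit on every array. The fitted changes ran from -1.42 for CD300A to 2.60 for FCGR3B.

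Among the class I genes, HLA-G and HLA-F were higher on crECM, and HLA-C and HLA-E did not pass. HLA-G, a class I molecule of narrow tissue range that binds inhibitory LILR receptors and KIR2DL4, had deposited log10 values of 1.77, 1.82 and 2.24 (lowest, median, highest) on crECM, against 1.49 and 1.47 on plastic. The raw intensity was 557 to 1829 on crECM, against 272 and 224 on plastic. All crECM arrays lay above both plastic arrays, and the log2 change was 1.48 ± 0.41 (SE, adjusted p = 0.013), a 2.78-fold difference. Days 7, 8 and 9 held the highest values (2.19, 2.07 and 2.24), and the 6 earlier arrays stood between 1.77 and 1.84. Among the class I genes above the raw limit on every array, HLA-G was the one that passed the test.

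HLA-F, which natural killer cell receptors can bind in an open form, had deposited values of 0.84, 1.22 and 1.29 on crECM, against 0.91 and 0.81 on plastic. The 12 h array lay between the plastic arrays, whereas all later arrays were at 1.14 or above. The raw intensity was 96.1 to 346 on crECM, against 43.3 and 26.3 on plastic, which is under the raw limit there. The log2 change was 1.03 ± 0.33 (adjusted p = 0.023), with no bound on the fold.

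HLA-C, a classical class I gene whose products are ligands of KIR receptors, was measured by a pair of probes that differed in sign. The brighter probe had 1.69, 1.83 and 1.98 on crECM, against 1.86 and 1.44 on plastic, with a log2 change of 0.56 ± 0.36 (adjusted p = 0.22). The other probe had 1.45, 1.59 and 2.04 on crECM, against 1.83 and 1.77 on plastic, with a log2 change of -0.59 ± 0.42 (adjusted p = 0.28). The groups overlapped on both probes, and the distance between the plastic arrays on the brighter probe was wider than the crECM range. HLA-E, whose product is bound by the NKG2 receptors, had 1.48, 1.53 and 1.60 on crECM, against 1.59 and 1.54 on plastic, with a log2 change of -0.10 ± 0.11 (adjusted p = 0.48).

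Of the 12 class II genes, 2 were higher, 5 were lower and 5 did not pass, with a median log2 change of -0.32. HLA-DM is the chaperone that exchanges peptides on class II molecules, and its chains carried opposite calls. HLA-DMB, the beta chain, had 0.48, 1.22 and 1.45 on crECM, while on plastic it stood at the lowest value that the arrays list, -2.51 and -2.39. Its raw intensity was 130 to 456 on crECM, with 8 of 9 arrays above the raw limit, and -10.5 and -11.6 on plastic. The log2 change was 2.29 ± 0.69 (adjusted p = 0.018), with no bound on the fold. HLA-DMA, the alpha chain, had 1.42, 1.49 and 1.52 on crECM, against 1.58 and 1.64 on plastic, a log2 change of -0.45 ± 0.10 (adjusted p = 0.0040). The raw intensity of HLA-DMA ran the other way, with a median of 484 on crECM, against 363 and 402 on plastic. Its dimmer probe had a log2 change of 0.86 ± 0.50 (adjusted p = 0.19) and was above the raw limit on 5 crECM arrays and on no plastic array.

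HLA-DO is the inhibitor of HLA-DM. The alpha chain gene HLA-DOA had 1.37, 1.45 and 1.54 on crECM, against 1.58 and 1.65 on plastic, with a log2 change of -0.54 ± 0.15 (adjusted p = 0.011), while its dimmer probe had a log2 change of 0.92 ± 0.49 (adjusted p = 0.15). The beta chain gene HLA-DOB had 1.54, 1.66 and 1.86 on crECM, against 1.65 and 1.59 on plastic, and did not pass (log2 change 0.16 ± 0.20, adjusted p = 0.55).

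HLA-DP, HLA-DQ and HLA-DR are the molecules that present peptides to helper T cells. HLA-DPA1 had 1.32, 1.42 and 1.50 on crECM, against 1.29 and 1.18 on plastic, all arrays apart, with a log2 change of 0.61 ± 0.15 (adjusted p = 0.0059). Its partner HLA-DPB1 had 1.49, 1.57 and 1.64 on crECM, against 1.68 and 1.69 on plastic, with a log2 change of -0.45 ± 0.12 (adjusted p = 0.0080). The calls of the DP chains, like those of the DM chains, were opposite in the deposited values alone. Recomputed from raw intensities, neither HLA-DPA1 (adjusted p = 0.11) nor HLA-DMB (adjusted p = 0.051) passed. HLA-DMB also did not pass with either plastic array left out, nor HLA-DPA1 without plastic replicate 2 (adjusted p = 0.11). The pseudogene HLA-DPB2 had 0.91, 1.17 and 1.32 on crECM, against 1.19 and 1.30 on plastic (log2 change -0.33 ± 0.30, adjusted p = 0.39).

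HLA-DQA2 had 1.37, 1.41 and 1.45 on crECM, against 1.50 and 1.47 on plastic, a log2 change of -0.25 ± 0.09 (adjusted p = 0.046). HLA-DQA1 had a median of -5.55 and a highest value of 0.17 on crECM, against 0.77 and 0.86 on plastic, with a log2 change of -1.13 ± 0.06 (adjusted p = 5.4e-08). Its raw intensities did not separate the groups, at 28.2 to 55.3 on crECM and 29.1 and 30.4 on plastic, all within the raw noise, so no level of HLA-DQA1 was measured in either. HLA-DQB1 had 1.25, 1.53 and 1.58 on crECM, against 1.63 and 1.66 on plastic (log2 change -0.48 ± 0.23, adjusted p = 0.11). HLA-DRA, the alpha chain of HLA-DR, had 1.46, 1.57 and 1.68 on crECM, against 1.64 and 1.67 on plastic (log2 change -0.31 ± 0.16, adjusted p = 0.13). HLA-DRB5 had 1.17, 1.352 and 1.46 on crECM, against 1.19 and 1.39 on plastic (log2 change 0.14 ± 0.24, adjusted p = 0.67). The DR genes thus had overlapping groups. The class II genes that were lower and above the raw limit on every array, HLA-DMA, HLA-DOA, HLA-DPB1 and HLA-DQA2, differed by less than 1.5-fold. As for HLA-DMA, the raw medians of HLA-DOA, HLA-DPB1 and HLA-DQA2 ran the other way. They were 453, 548 and 440 on crECM, against 358 and 412, 508 and 475.5, and 278.5 and 227 on plastic.

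**Figure D2:**
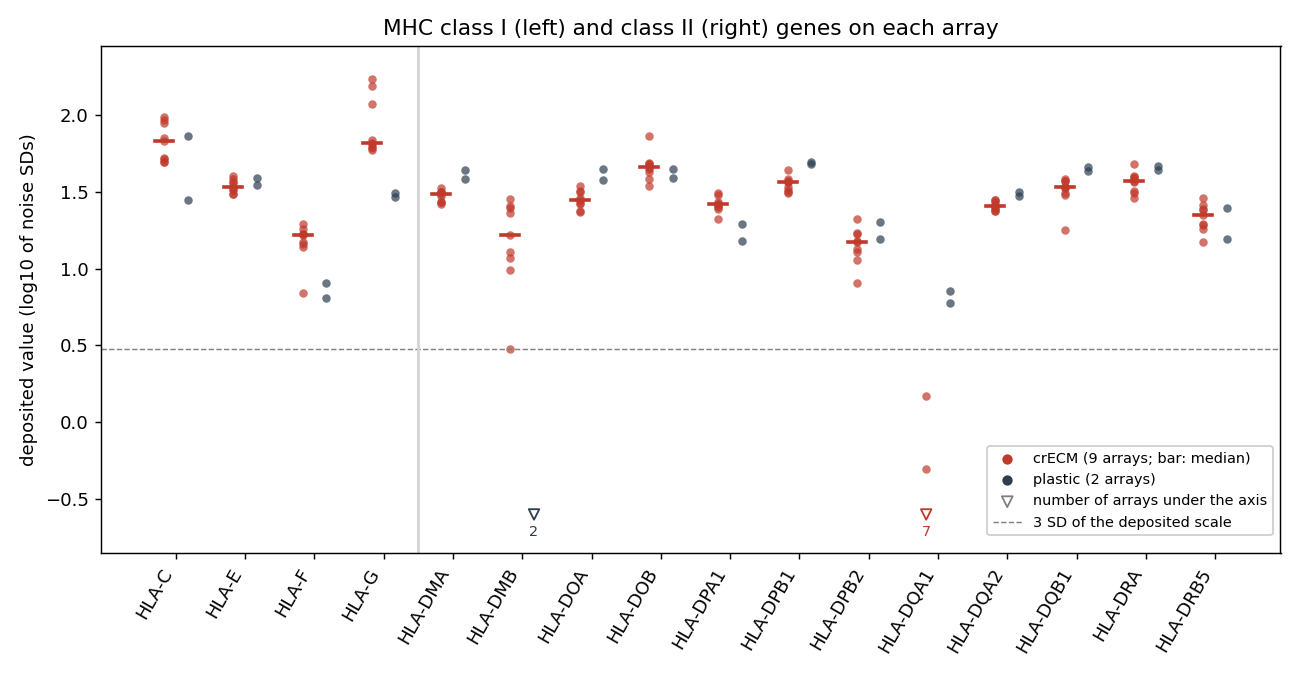
Deposited values (log10 of noise SDs, vertical axis) of the 4 class I genes and 12 class II genes (horizontal axis) on 9 crECM arrays (red, with the median as a bar) and 2 plastic arrays (dark). HLA-G stands at 1.77 or above on crECM, against 1.49 and 1.47 on plastic, and triangles with a number give the arrays under the axis, both plastic arrays for HLA-DMB and 7 crECM arrays for HLA-DQA1.

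The partners of the MHC genes were taken from lists of known pathway genes. Beside the counts of each list, 24.2% of all genes were higher and 20.1% lower. A difference in share was not tested. Among 13 tested genes of class I processing, 3 were higher, 1 was lower and 9 did not pass, with a median log2 change of 0.15. B2M, the light chain of class I molecules, had 2.19, 2.31 and 2.72 on crECM, against 2.25 and 2.26 on plastic (log2 change 0.48 ± 0.45, adjusted p = 0.41), and days 8 and 9 were the highest arrays. TAPBPL, a peptide editor of class I, had a log2 change of 2.43 ± 0.25 (adjusted p = 1.3e-05), and ERAP2, a peptidase that trims class I peptides, one of 2.20 ± 0.24 (adjusted p = 2.4e-05). Both were above the raw limit on all crECM arrays and on no plastic array. TAPBP, or tapasin, was called lower at -0.997 ± 0.22 (adjusted p = 0.0034) with no array above the raw limit.

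Among 13 tested genes of class II presentation, 2 were higher, 3 were lower and 8 did not pass (median log2 change 0.11). CTSB, a cathepsin of endosomes, had 1.71, 1.76 and 1.84 on crECM, against 1.45 and 1.46 on plastic, a log2 change of 1.02 ± 0.11 (adjusted p = 1.4e-05). CTSL, another endosomal cathepsin, had a log2 change of 0.40 ± 0.09 (adjusted p = 0.0037). CD74, the invariant chain, had 1.48, 1.57 and 1.89 on crECM, against 1.57 and 1.58 on plastic (log2 change 0.09 ± 0.29, adjusted p = 0.81). CIITA, the master coactivator of class II genes, had 1.24, 1.52 and 1.61 on crECM, against 1.353 and 1.42 on plastic (log2 change 0.39 ± 0.26, adjusted p = 0.24). The genes called lower, RFXAP, NFYB and CTSS, were above the raw limit on no array.

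Among 14 tested class I-like genes outside the HLA symbol, 5 were higher, 3 were lower and 6 did not pass (median log2 change 0.34). CD1D, which presents lipids to natural killer T cells, had 1.26, 1.45 and 1.64 on crECM, against 0.73 and -0.49 on plastic, a log2 change of 2.84 ± 0.31 (adjusted p = 2.5e-05), with no plastic array above the raw limit. HFE, a regulator of iron uptake, was also higher at 1.52 ± 0.45 (adjusted p = 0.017), again with no plastic array above that limit. CD1E was called lower at -0.83 ± 0.19 (adjusted p = 0.0045). Its raw intensity ran the other way, with a median of 264 on crECM, against 188 and 154 on plastic. CD1E was above the raw limit on all crECM arrays and on 1 plastic array. PROCR, the endothelial protein C receptor, was also called lower, at -0.997 ± 0.11 (adjusted p = 1.8e-05) with no array above the raw limit.

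Of 7 tested genes of interferon gamma signaling, 1 was higher, 3 were lower and 3 did not pass (median log2 change -0.09). JAK2, a kinase of the interferon gamma receptor, had 1.36, 1.44 and 1.53 on crECM, against 1.78 and 1.72 on plastic, a log2 change of -1.02 ± 0.14 (adjusted p = 0.00016). JAK1, its partner kinase, was called higher at 1.69 ± 0.62 (adjusted p = 0.046), with plastic arrays at 1.46 and 0.39 that stood further apart than the crECM arrays (1.29 to 1.79). The receptor chain IFNGR2 was called lower at -1.32 ± 0.05 (adjusted p = 4.6e-09) with no array above the raw limit.

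Of the 38 tested receptor genes that are not expected in urothelial cells, 13 were higher, 4 were lower and 21 did not pass, with a median log2 change of 0.18. Of 16 MHC genes, 4 were higher, 5 were lower and 7 did not pass, with a median of -0.17. Of all genes, 24.2% were higher and 20.1% lower. Recomputed from raw intensities, 8 of 37 receptor genes were higher and 3 lower (median 0.009). For the MHC genes, 2 of 15 were then higher and 4 lower (median -0.14). By a deposited mean of at least 5 SD on crECM or on plastic, 35 of 40 receptor genes and 16 of 16 MHC genes passed. The share over all genes was 92.1%. On plastic this criterion lay within the raw noise. HLA-DQA1, CD300A and FCRL1 passed it with no array above the raw limit. Above the raw limit on every crECM array were 21 of 40 receptor genes and 13 of 16 MHC genes, against 76.2% of all genes. Between 12 and 17 of the 40 receptor genes lay above the median raw intensity of a crECM array and 14 or 15 above that of a plastic array, against 11 to 13 and 10 or 11 of the 16 MHC genes. On crECM most receptor probes thus gave a signal in this bladder line, for the larger part below the median of the array, whereas the larger part of the MHC probes lay above it. Of the 13 higher receptor genes, 10 had no plastic array above the raw limit, as had 3 of the 4 higher MHC genes. A difference between MHC and receptor genes in the share called was not tested.

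The KIR genes encode receptors of natural killer cells for class I molecules. KIR2DL4, which binds HLA-G, had 0.19, 1.15 and 1.28 on crECM and the lowest listed values, -2.51 and -2.39, on plastic. The raw intensity was 65.9 to 379 on crECM, with 7 of 9 arrays above the raw limit, and -39.4 and -37.8 on plastic. The log2 change was 1.90 ± 0.64 (adjusted p = 0.030), which did not pass when values were recomputed from raw intensities (adjusted p = 0.088). Days 3 and 7 were the low crECM arrays. KIR3DL3 had -0.69, 1.10 and 1.15 on crECM, with the same lowest values on plastic, and a log2 change of 1.77 ± 0.49 (adjusted p = 0.012). KIR3DL2 was higher, and the pseudogene KIR3DX1 did not pass.

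The LILR genes encode receptors of myeloid and plasmacytoid cells, several of which bind class I molecules. LILRA4, a marker of plasmacytoid dendritic cells, had 0.99, 1.13 and 1.26 on crECM and the lowest listed values on plastic. All 9 crECM arrays exceeded the raw limit (raw intensity 129 to 379), against -23.1 and -52.3 on plastic, and the log2 change was 2.17 ± 0.24 (adjusted p = 2.1e-05). LILRA3, a soluble member, had 0.56, 1.01 and 1.28 on crECM, with 8 arrays above the raw limit, and the lowest listed values on plastic (log2 change 1.55 ± 0.49, adjusted p = 0.024). The inhibitory receptors that bind HLA-G, LILRB1 and LILRB2, did not pass, nor did LILRA1, LILRA2 and LILRB3.

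CD300A and CD300C are paired receptors of myeloid cells, inhibitory and activating, that bind lipids of dying cells. CD300C had 1.28, 1.40 and 1.54 on crECM, against 0.78 and 0.76 on plastic, and all arrays were apart. The raw intensity was 250 to 499 on crECM, against 29.7 and 22.7 on plastic, where it stood at the center of the noise, and the log2 change was 2.09 ± 0.22 (adjusted p = 1.6e-05). CD300A had a median of -5.27 and a highest value of 0.25 on crECM, against 0.86 and 0.95 on plastic, with a fitted change of -1.42 ± 0.07 (adjusted p = 1.9e-08). In noise SDs of the raw scale, however, CD300A stood between -1.16 and 0.46 on crECM and at 0.22 and 0.27 on plastic. No level of CD300A was thus measured in either group. Recomputed from raw intensities, it was again called lower, at -0.53 ± 0.08 (adjusted p = 0.00052). What gave these calls within the noise was not tested. The antisense RNA CD300LD-AS1 had 1.08, 1.28 and 1.36 on crECM, against 1.61 and 1.61 on plastic, with raw intensities of 223 to 461 on crECM, against 394 and 364 on plastic. Its log2 change was -1.14 ± 0.21 (adjusted p = 0.0011), and every array was above the raw limit.

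Most SIGLEC genes encode sialic acid binding lectins of leukocytes. SIGLEC12 had 0.88, 1.17 and 1.23 on crECM, against -0.08 and -2.39 on plastic, with 7 crECM arrays and no plastic array above the raw limit (log2 change 2.07 ± 0.31, adjusted p = 0.00027). The pseudogene SIGLEC17P had 1.55, 1.59 and 1.66 on crECM, against 1.71 and 1.71 on plastic, a log2 change of -0.42 ± 0.09 (adjusted p = 0.0030). Its raw intensity ran the other way, with a median of 628 on crECM, against 557 and 503 on plastic. The other 9 SIGLEC genes did not pass on their counted probes, from SIGLEC1 and SIGLEC15, above the raw limit on all crECM arrays, to SIGLEC7, above it on 2. SIGLEC8 did not pass on its brighter probe (adjusted p = 0.94), whereas its dimmer probe was called higher (adjusted p = 0.036). That dimmer probe had 0.47, 0.93 and 1.21 on crECM, against 0.51 and -2.39 on plastic, so the groups overlapped. It was above the raw limit on 7 crECM arrays and on no plastic array. Recomputed from raw intensities, it did not pass (adjusted p = 0.27).

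The FCGR genes encode receptors for IgG. FCGR3B, the low-affinity receptor of neutrophils, had 0.92, 1.29 and 1.54 on crECM, against 0.47 and 0.43 on plastic, with a fitted log2 change of 2.60 ± 0.46 (adjusted p = 0.00079) and no bound on the fold. Its raw intensity was 106 to 643 on crECM, against 13.0 and 8.5 on plastic, where it lay within the noise. FCGR1A, the high-affinity receptor of monocytes, had 1.43, 1.61 and 1.71 on crECM, against 1.31 and 1.37 on plastic, a log2 change of 0.85 ± 0.19 (adjusted p = 0.0042). FCGR2B was higher, FCGR2A did not pass, and neither did FCGRT, which carries IgG across epithelia and was above the raw limit on every array but that of day 1, where the raw intensity was -304.

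The FCRL genes encode Fc receptor-like proteins of B cells. FCRL2 had 1.04, 1.20 and 1.46 on crECM and the lowest listed values on plastic, with all crECM arrays above the raw limit (raw intensity 128 to 452) against -48.0 and -54.5 on plastic, and a log2 change of 2.40 ± 0.30 (adjusted p = 6.2e-05). FCRLA, an intracellular member, had 0.11, 1.13 and 1.22 on crECM and the same lowest values on plastic (log2 change 1.78 ± 0.64, adjusted p = 0.040). FCRLB, also intracellular, had 1.32, 1.39 and 1.45 on crECM, against 1.64 and 1.65 on plastic, a log2 change of -0.89 ± 0.13 (adjusted p = 0.00021). Every array of FCRLB was above the raw limit, and its raw intensity was 251 to 481 on crECM, against 435 and 412 on plastic. FCRL1 was called lower at -0.97 ± 0.06 (adjusted p = 7.3e-08) with raw intensities of 34.6 to 75.5 on crECM, against 26.0 and 25.5 on plastic, all within the raw noise and higher, not lower, on crECM.

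The TREM genes encode activating receptors of myeloid cells. TREM2, a lipid receptor of macrophages and microglia, had 1.02, 1.18 and 1.63 on crECM, against -0.15 and 0.58 on plastic, with a log2 change of 2.29 ± 0.40 (adjusted p = 0.00082). All crECM arrays exceeded the raw limit (raw intensity 122 to 394), and neither plastic array did (4.9 and 13.0). TREM1 and TREML2 did not pass.

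**Figure D3:**
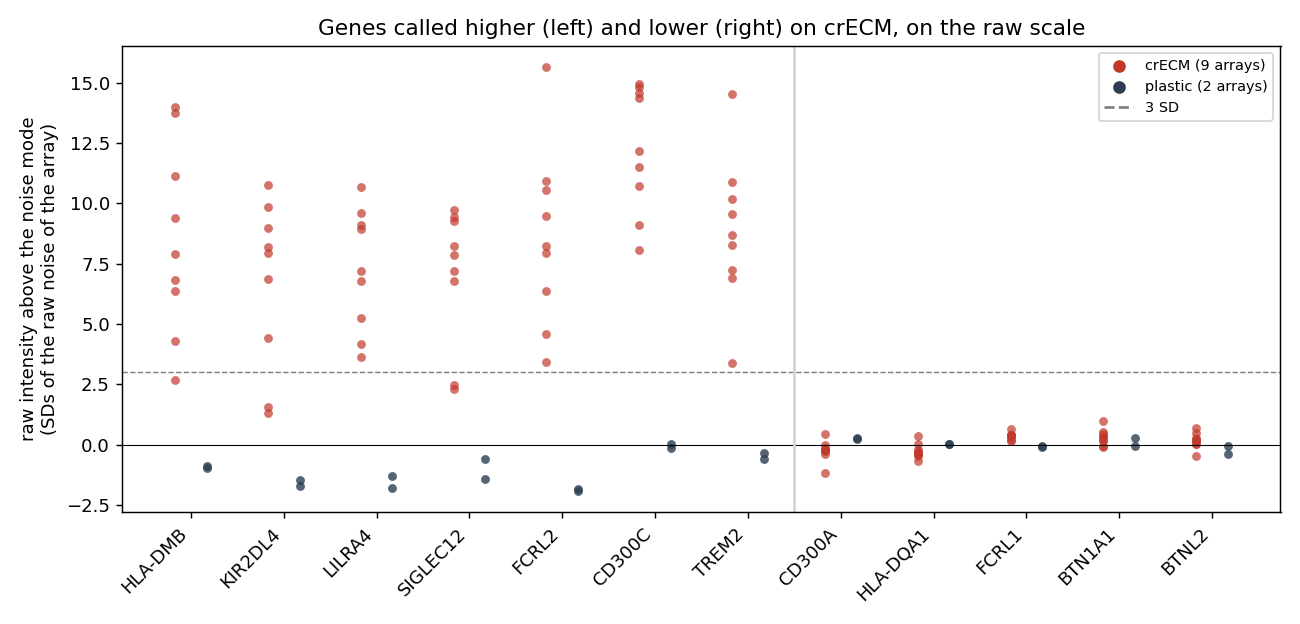
Raw intensity above the noise peak of each array, in SDs of its raw noise (vertical axis), of 7 genes called higher (left of the line) and 5 called lower (right) on crECM, with 9 crECM arrays (red) and 2 plastic arrays (dark). The genes called higher reach 15.7 SD on crECM (FCRL2) and lie at 0.04 SD or below on plastic, whereas the genes called lower stay under 3 SD on every array of both groups.

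Receptors of these families pair with adaptors and phosphatases, of which 11 were tested. Of these, 3 were higher, 0 were lower and 8 did not pass (median log2 change 0.40), with 6 higher and 1 lower at an unadjusted p below 0.05 from limma. The higher genes were FCER1G, PTPN6 and INPP5D. FCER1G, the common gamma chain of Fc receptors, had 1.31, 1.45 and 1.57 on crECM, against 1.22 and 0.40 on plastic, a log2 change of 1.98 ± 0.46 (adjusted p = 0.0048). PTPN6, the phosphatase SHP-1, had 1.37, 1.41 and 1.49 on crECM, against 1.03 and 1.02 on plastic (log2 change 1.32 ± 0.13, adjusted p = 8.5e-06). TYROBP, the adaptor DAP12 of TREM2, had 1.09, 1.54 and 1.70 on crECM, against 1.30 and 1.31 on plastic (log2 change 0.73 ± 0.41, adjusted p = 0.17). FCER1G, PTPN6, INPP5D and TYROBP were above the raw limit on all crECM arrays and on no plastic array. Their level on plastic is thus only a bound.

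Leukocyte markers outside these families were tested in the same fit. Of 19, 5 were higher (NCAM1, CD3E, CD3D, GNLY and NKG7), 1 was lower and 13 did not pass, with a median log2 change of 0.41. Of all genes, 24.2% were higher and 20.1% lower, so the count of higher markers was near that of other genes. NCAM1, a marker of natural killer cells and also of nerve cells, had a log2 change of 2.86 ± 0.32 (adjusted p = 2.9e-05) and CD3E, a chain of the T cell receptor complex, one of 2.64 ± 0.13 (adjusted p = 1.4e-08). Both were above the raw limit on all crECM arrays and on no plastic array. CD68, a lysosomal protein of macrophages, was lower at -0.48 ± 0.17 (adjusted p = 0.033), and PTPRC did not pass (-0.22 ± 0.10, adjusted p = 0.10). Of 14 tested urothelial and epithelial markers, 0 were higher (0 also at an unadjusted p below 0.05 from limma), 3 were lower and 11 did not pass, with CDH1, or E-cadherin, at -1.11 ± 0.38 (adjusted p = 0.033) and KRT20 at -0.96 ± 0.11 (adjusted p = 2.5e-05), where KRT20 had no array above the raw limit. Among the listed genes outside the members, the calls of HFE, CD68 and CDH1 were lost whichever plastic array was left out, and those of JAK1 and FCER1G without plastic replicate 2. What part these changes had in the receptor values was not tested.

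The butyrophilins are B7-like proteins, of which BTN3A1 and BTN3A2 take part in the sensing of phosphoantigens by gamma delta T cells. Of the 10, 4 were higher, 3 were lower and 3 did not pass, with a median log2 change of 0.26. BTN3A1 had 1.41, 1.58 and 1.67 on crECM, against 1.29 and 1.30 on plastic, with a log2 change of 0.92 ± 0.19 (adjusted p = 0.0020). BTN3A2 had 1.43, 1.70 and 1.81 on crECM, against 1.41 and 1.44 on plastic, with a log2 change of 0.81 ± 0.23 (adjusted p = 0.015), and was above the raw limit on every array. BTN3A3 did not pass. BTNL9 had -3.52, 1.20 and 1.27 on crECM, against 0.23 and 0.25 on plastic (log2 change 2.07 ± 0.57, adjusted p = 0.012), with no plastic array above the raw limit. The pseudogene BTN2A3P was higher on its brighter probe (0.36 ± 0.12, adjusted p = 0.031) and lower on the other (-0.70 ± 0.13, adjusted p = 0.0013), both above the raw limit on every array. BTNL8 was called lower, while its raw median ran the other way, at 613 on crECM, against 464 and 402 on plastic. BTN1A1 (-1.21 ± 0.14, adjusted p = 3.1e-05) and BTNL2 (-0.54 ± 0.12, adjusted p = 0.0037) were also called lower. The raw intensities of BTN1A1 and BTNL2 lay within the noise on all arrays, and those of BTNL2 were 34.6 to 63.2 on crECM, against 26.5 and 11.4 on plastic.

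By the criterion of a mean log10 value below 0 on plastic and above 1 on crECM, 5 of 68 members were off-on. They were HLA-DMB, KIR2DL4, LILRA4, SIGLEC12 and FCRL2, and 0 members were on-off. Of all 14941 genes, 591 were off-on and 50 on-off, and a difference in share was not tested. All 5 were under the raw limit on both plastic arrays and above it on 7 to 9 crECM arrays. For these 5 the deposited mean on crECM (1.02 to 1.20) was below the deposited value that corresponds to the raw limit on plastic (1.30 and 1.38), so a deposited value on plastic equal to that mean would have been within the raw noise there.

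On crECM, the 12 h array was set against the 8 later arrays. There 6 members were called, 9.09% of the 66 tested, against 5.97% of all genes. At an unadjusted p below 0.05 the counts were 14 members and 19.5% of all genes, a share near that of other genes. Higher at 12 h were TREM2 (1.63 at 12 h, against 1.02 to 1.24 later, log2 difference 1.56 ± 0.27, adjusted p = 0.013), LILRA1 (2.25 ± 0.27, adjusted p = 0.0017), BTN3A3 (0.39 ± 0.09, adjusted p = 0.034) and BTN1A1, which was within the raw noise. Lower at 12 h were HLA-F (0.84, against 1.14 to 1.29, log2 difference -1.23 ± 0.21, adjusted p = 0.013) and BTN3A2 (1.43, against 1.63 to 1.81, -0.91 ± 0.18, adjusted p = 0.026). The deposited values of BTN3A2 and HLA-F lay between those of the plastic arrays at 12 h and above both from day 1. For HLA-F the 12 h array and both plastic arrays were under their raw limits, so that no level was measured there. LILRA1 was above the raw limit at 12 h and on day 8 alone, so its difference is set against later arrays mostly within the raw noise. The single 12 h array has no replicate and is assumed to vary like the others. It was also the dimmest crECM array, with a raw median of 224 over all probes. Day 7 stood at 250 and the other days at 338 to 482. What part this had in the 12 h calls was not tested.

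Over the days on crECM, limma found 0 members with a slope on log2 of the day past the adjusted threshold (0.00689% of all genes passed) and 7 at an unadjusted p below 0.05, against 8.71% of all genes, again near that share. These 7 were HLA-C, HLA-F, HLA-G, SIGLEC8 and BTN3A2 with positive slopes and TREM2 and BTN1A1 with negative ones. The slope was 0.30 ± 0.11 log2 units for each doubling of time for HLA-G (adjusted p = 0.52) and 0.27 ± 0.06 for HLA-F (adjusted p = 0.38). B2M also had its highest values late, 2.72 on day 8 and 2.65 on day 9, with a slope of 0.29 ± 0.12 (adjusted p = 0.55). The brighter probe of HLA-C stood at 1.98, 1.95 and 1.97 on days 7, 8 and 9, and at 1.69 to 1.85 before, while its dimmer probe had its highest value, 2.04, at 12 h.

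**Figure D4:**
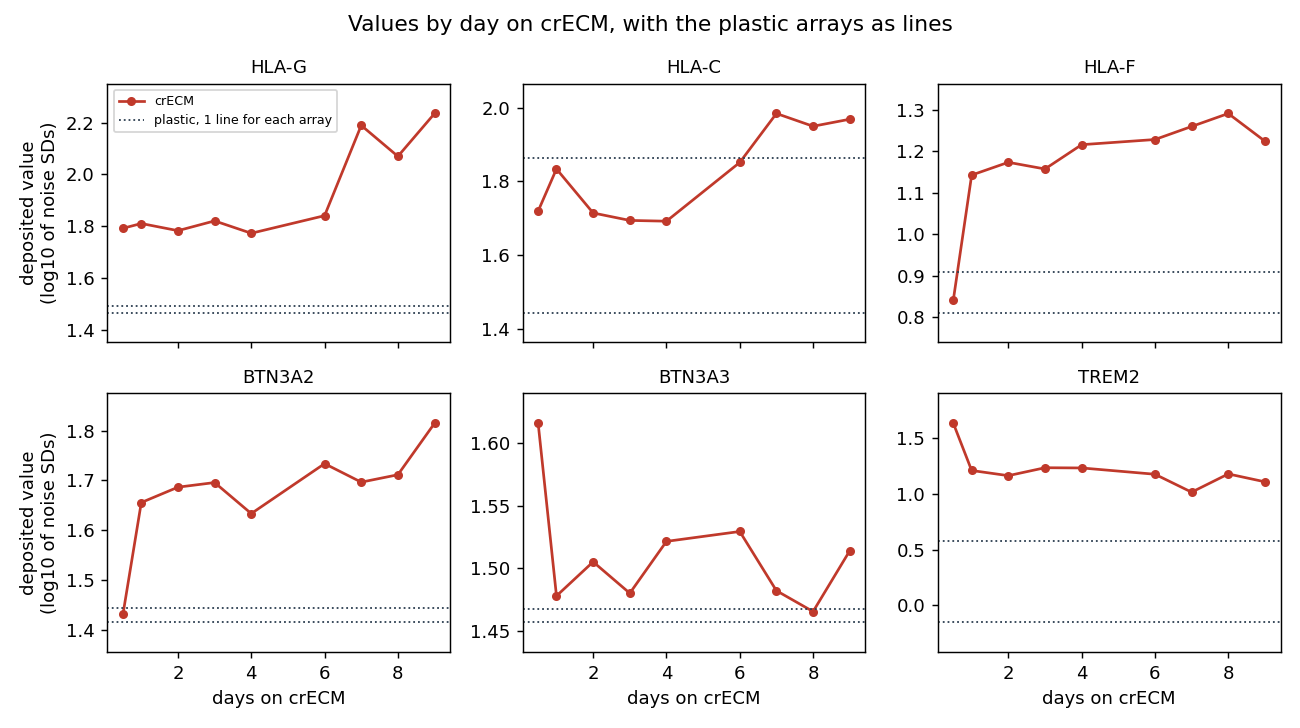
Deposited values (log10 of noise SDs, vertical axis) by day on crECM (horizontal axis, red points, 1 array each) of HLA-G, HLA-C (brighter probe), HLA-F, BTN3A2, BTN3A3 and TREM2, with dotted lines for the 2 plastic arrays and a scale of its own in each panel. HLA-G stands near 1.8 until day 6 and above 2 on days 7, 8 and 9, and HLA-F and BTN3A2 lie within the plastic lines at 12 h and above them from day 1.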

How the data were processed

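Expression was measured on 11 one-color arrays of 22464 spotted long oligonucleotides. The authors scaled each array to the SD of its noise around zero, converted to log10 and brought the arrays onto a common scale with a robust regression. These deposited log10 values were the main data. The deposited raw intensity values gave the noise peak of each array (mode and SD from the lower side), the raw detection limit of 3 SD and the rebuilt values. The scanner was not given in the sources used here, and neither was a genome build. The number of arrays limits the precision.

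Tests used limma 3.58.1 in R 4.3.3 (lmFit, eBayes with trend) on log2 of the deposited log10 scale with a floor of 3 SD, over the 21480 probes that exceeded 3 SD on 2 arrays or more, with Benjamini-Hochberg adjustment at 0.05, and were tested on simulated data. Where all arrays of a group were at the floor, the standard error is small. The probe with the highest mean stood for a gene. Symbols came from the platform annotation (17043 probes with 1 symbol, 172 with several, 5249 with none). Python 3.11.15 was used for counts. The deposited value at the raw limit is the median over probes within 0.1 SD of it.

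Members, gene lists and tests were chosen with earlier results of these data known. Named with values were all MHC genes, HLA-DMB, CD300A and KIR2DL4, the up to 2 members of each other family with the largest change each way, off-on members, likewise up to 2 called genes a list each way, and B2M, CD74, CIITA, PTPRC and TYROBP, and, after their values were seen, genes of the 12 h and time comparisons, BTN2A3P, FCGRT, KRT7, KRT19 and UPK1B. TAP1 was not analysed here. Alternatives were rebuilt values with and without regression, quantile normalization, floors, filters, array weights and arrays left out.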

Additional observations from a re-analysis of the deposited data

Results flagged for a closer look

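The lowest or the highest of the 9 crECM arrays stood far from the others for 9 of 32 named members. A rate of 1 in 20 would give about 1.6. That rate assumes independent normal values, whereas these members share the same arrays and a floor. The counts therefore cannot show an excess over chance. The 12 h and day 7 arrays had the lowest raw medians on crECM (224 and 250). Distances were taken with values under 3 SD set to 3 SD, and the other 4 of the 36 named members were at that floor on every crECM array. The values given are deposited log10 values, and no explanation was tested. The 12 h array was the highest for TREM2 (1.63) and for BTN1A1 (0.54, within the raw noise and the only array above the floor, while without the floor day 7 at -3.52 stood farthest) and the lowest for HLA-F (0.84). Day 3 was the lowest for HLA-DMB (0.48) and HLA-DQB1 (1.25). Day 7 was the lowest for KIR3DL3 (-0.69) and for BTNL9 (-3.52, the lowest value listed on that array). Day 8 was the highest for FCRL2 (1.46), and day 4 was the highest for HLA-DOB (1.86).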

How the results depend on the processing

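The count of 21 higher members was 14 to 22 under rebuilt values with regression, quantile normalization, other floors, no filter, array weights, all probes and without the 12 h array, and 9 to 12 with 1 plastic array left out. Rebuilt values kept 14 higher and 9 lower calls, without HLA-DMB (adjusted p = 0.051), HLA-DPA1, KIR2DL4, KIR3DL2, LILRA3, FCRLA and FCGR2B among the higher, while the lower FCRL1, HLA-DQA1, BTN1A1 and BTNL2 were under its filter. Without the regression 51 were higher and 0 lower (0 also at an unadjusted p below 0.05), as all probes then shifted by 1.30 (log2). The 13 lower members were 7 with a filter of 3 SD of the raw noise, chosen after seeing the data, which removes the 5 genes within the raw noise and ends the call of HLA-DQA2, and 9 to 10 with 1 plastic array left out. The 6 members called at 12 h were 2 with quantile normalization. Relative to that shift, signs turned without the regression for BTNL9 (-0.044), FCRLA (-0.30), HLA-DOB (-0.025), KIR2DL4 (-0.21), KIR3DL3 (-0.28), LILRA3 (-0.58), LILRA4 (-0.11), SIGLEC12 (-0.16), HFE (-0.44) and B2M (-1.04). B2M was -0.32 and HLA-E 0.0077 with quantile normalization. HLA-DRB5 was -0.11 with rebuilt values, -0.015 with quantile normalization and -0.20 to 0.47 with 1 plastic array left out, where HLA-C was -0.14 to 1.26. The cause of these changes was not tested. The 60 members at 5 SD were 49 to 63 under other criteria, and 0 members had a trend in any setting. No paired analysis was possible because the crECM arrays are time points whose numbers do not pair them with the plastic arrays.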
